A study of Mus musculus with 12 samples.

Results

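The genes examined were Myc, Hif1a and the nutrient transporters Slc7a5, Slc7a6, Slc3a2, Slc1a5, Slc38a1, Slc38a2, Slc7a1 and Tfrc, taken from a fixed list of 10 symbols and read in all 12 libraries of the study. These are 10 of the 35275 genes in the deposited table, and all 10 passed the filter on low values (0.5 FPKM or more as the average of the 12 mice) that left 13115 genes to test. RNA came from CD4+ T cells of female mice, with 1 mouse per library and 3 mice in each of 4 groups. B6 (C57BL/6) mice were given anti-CD45RB or left untreated, and so were SLE123 mice (B6.NZMSle1/Sle2/Sle3), in which 3 genomic regions of a lupus-prone strain, Sle1, Sle2 and Sle3, were bred onto the B6 background. The antibody was clone MB23G2, given intraperitoneally at 100 µg in 5 injections between day 0 and day 7, and the methods give the mice as 9 weeks old while a legend gives 9 to 12 weeks. CD4+ cells were taken by negative magnetic selection. The methods also describe a later split into CD25+ and CD25- cells, and the library titles name no such fraction. The study asked how this tolerance-inducing antibody changes CD4+ T cells of the 2 strains.

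Nutrient uptake limits how far a T cell can grow and divide. Slc7a5 and Slc7a6 are light chains that carry neutral and cationic amino acids, and each reaches the cell surface only when bound to the shared heavy chain Slc3a2 (CD98). Slc1a5, Slc38a1 and Slc38a2 move glutamine and other small neutral amino acids, Slc7a1 moves arginine and lysine, and Tfrc (CD71) takes up iron bound to transferrin. Myc is the transcription factor that raises transporter and biosynthetic genes after antigen stimulation, and Hif1a is the oxygen-regulated transcription factor that shifts cells towards glycolysis, with a protein that is controlled largely after transcription.

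Levels are given as FPKM, the fragments of a gene scaled to the length of its transcript in kilobases and to the mapped fragments of the library, so that levels of different genes can be compared per length. Differences are given on the scale of log2(FPKM + 1) with their standard errors, and a gene was called at a Benjamini-Hochberg adjusted p under 0.05 in limma over all genes tested. The libraries held 13562933 to 23641603 fragments, and every member had at least 744 fragments in every library. In bulk RNA, fewer cells of a type and less RNA per cell cannot be told apart.

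The T cell list (9 genes, Cd3e and Cd4 among them) summed to 2131 to 2826 FPKM in the 12 libraries, the lowest in untreated SLE123 replicate 3. In treated B6 it was lower than in untreated B6 without overlap (2515 to 2593 against 2688 to 2776 FPKM), and 3 of the 9 genes were called lower. Immunoglobulin genes took 0.0895% to 0.336% of the fragments in B6, while SLE123 libraries had 2.51% to 12.2%, with untreated SLE123 replicate 3 at the top. The 6 plasma cell markers summed to 57.4 to 77.0 FPKM in untreated B6, 93.0 to 195.5 in treated B6, 1949 to 5037 in untreated SLE123 and 1048 to 1920 in treated SLE123, and none of the 6 was at 0 in any library. The 10 genes of dividing cells summed to 75.1 to 95.8 FPKM in B6 and 169 to 267 in SLE123. Within B6, treated mice lay above untreated ones without overlap for the B cell sum (25.9 to 33.6 against 4.22 to 5.62 FPKM), the myeloid sum (50.4 to 117.9 against 5.78 to 11.5), the platelet sum (14.1 to 22.5 against 3.48 to 5.88), the dendritic cell sum (5.85 to 7.56 against 1.11 to 1.53) or the NK cell sum (29.8 to 37.6 against 17.6 to 19.4). The liver list summed to 40.2 to 47.3 FPKM in the 6 B6 libraries and 44.9 in treated SLE123 replicate 1, against 0.0767 to 0.483 in the other 5 SLE123 libraries. Treated SLE123 replicate 1 and untreated SLE123 replicate 3 therefore stand apart, and calls of the members that change without one of them are given both ways. The part of these other transcripts in the results below was not tested, except where a value without a library is given.

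The order of the members by level differed between the strains. In untreated B6 mice, Slc1a5 was the highest at 88.6 ± 3.63 FPKM (SD, n = 3), followed by Slc38a2 at 54.1 ± 3.61, Myc at 44.04 ± 3.16 and Slc3a2 at 37.6 ± 1.53. In untreated SLE123 mice, Slc3a2 was the highest at 96.1 ± 27.8 FPKM, followed by Hif1a at 78.1 ± 12.7 and Slc38a2 at 45.9 ± 9.55, and the ranges of Slc3a2 and Hif1a overlapped. The lowest levels were those of Tfrc, Slc7a1 and Slc7a6, with group means of 12.1 to 17.3 FPKM. The exception was treated B6, where Slc7a5 (14.87 FPKM) lay just under Slc7a6 (14.98 FPKM).

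**Figure D1:**
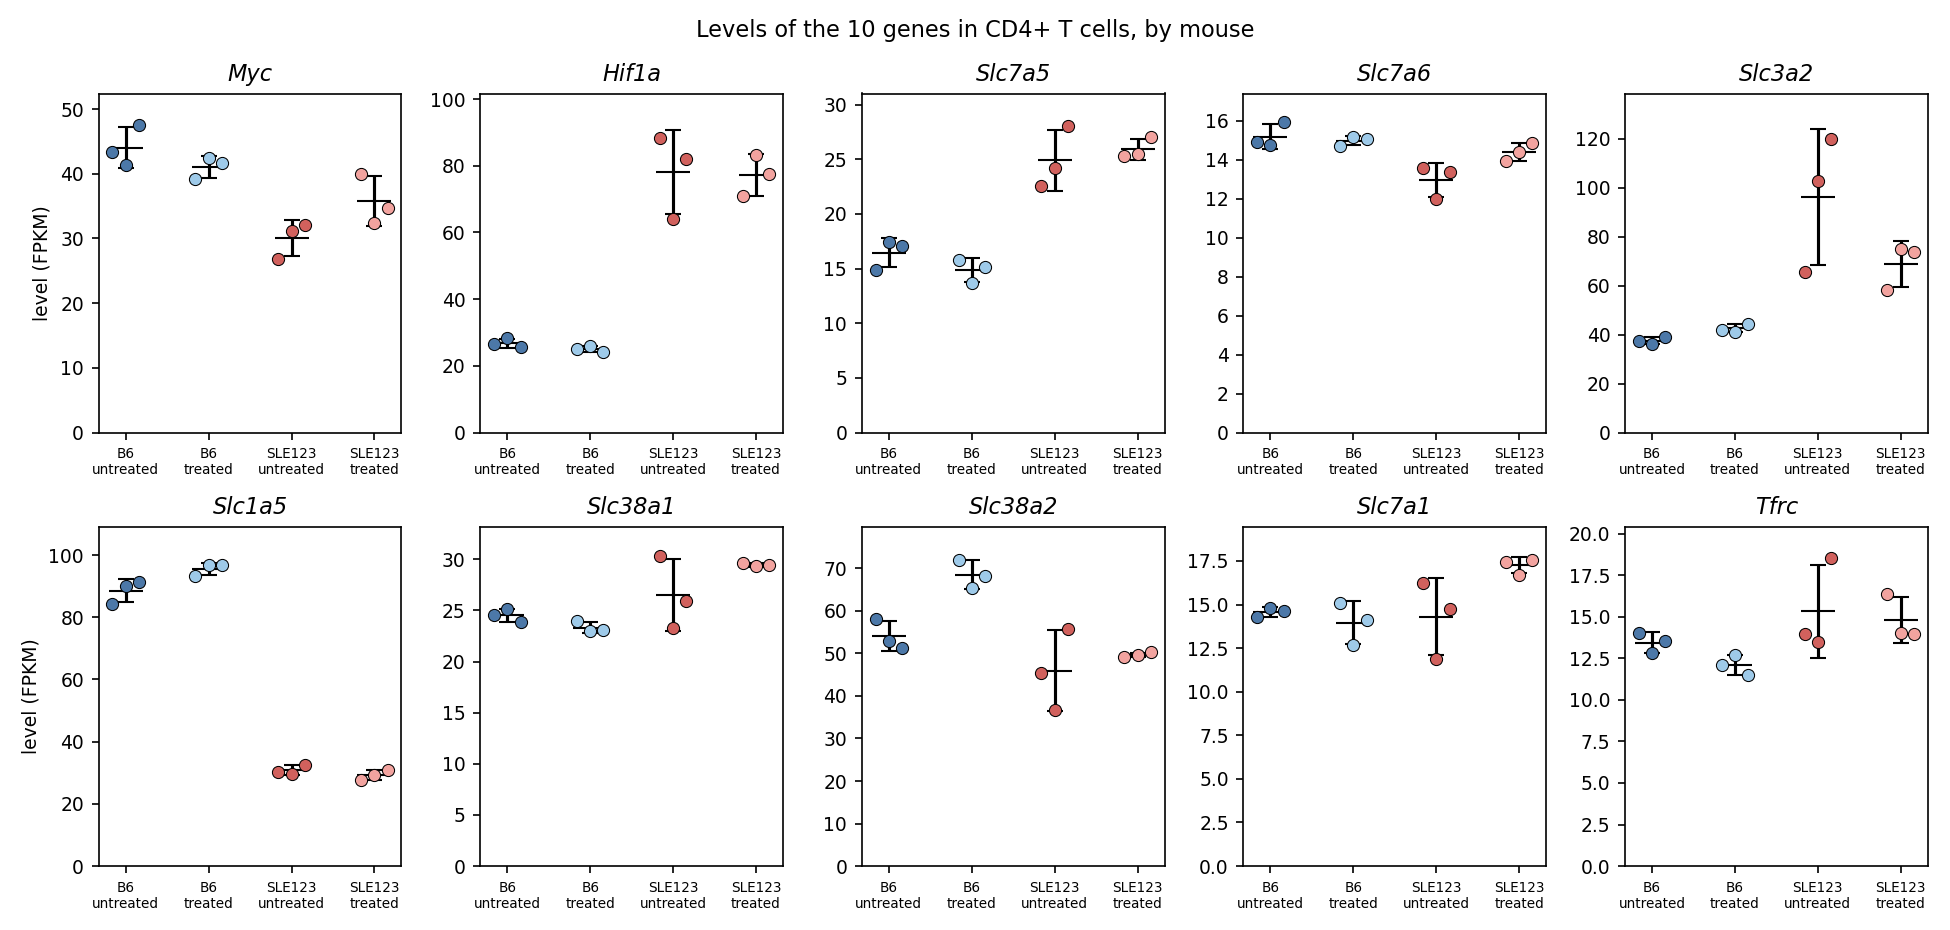
Levels of the 10 genes in FPKM (vertical axes start at 0), with one point per mouse and the mean ± SD (n = 3) of each of the 4 groups as black bars. Slc1a5 lay at 84.4 to 96.7 FPKM in the 6 B6 mice and at 27.7 to 32.7 in the 6 SLE123 mice, while Hif1a and Slc3a2 were higher in all SLE123 mice.

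Strain differences were the largest changes among the members. Between untreated mice, 5 of the 10 were called (42.9% of all genes tested were called), with Hif1a, Slc3a2 and Slc7a5 higher in SLE123 and Slc1a5 and Myc lower. Between treated mice, 8 of the 10 were called (52.1% of all genes), with Hif1a, Slc7a5, Slc3a2, Slc38a1, Slc7a1 and Tfrc higher in SLE123 and Slc1a5 and Slc38a2 lower. The groups did not overlap for 6 members in untreated mice (58.6% of all genes) and for 8 in treated mice (61.8%). The median absolute difference of the members was 0.39 in both comparisons, against 0.30 over all genes in untreated mice and 0.23 in treated mice. The share of members called in untreated mice was near that of all genes, and the values of single members follow below. Without untreated SLE123 replicate 3, 6 members were called in untreated mice, with Slc38a2 added, and without treated SLE123 replicate 1, 9 were called in treated mice, with Myc added.

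The treatment moved few of the members. In B6, 2 of the 10 were called (14.9% of all genes were called, 8.74% higher and 6.12% lower), Slc38a2 and Slc3a2, both higher after anti-CD45RB, and the groups did not overlap for 4 (38.0% of all genes). In SLE123, limma called 0 of the 10 (0.0381% of all genes were called, 0.0152% higher and 0.0229% lower), 0 were under an unadjusted p of 0.05, and limma voom on the recovered fragments called 0 as well. The groups did not overlap for 3, Myc, Slc7a6 and Slc7a1 (19.7% of all genes). The 95% confidence intervals of the SLE123 treatment differences were wide, from -0.97 to 0.09 for Slc3a2 and from -0.21 to 0.47 for Slc38a2, so that a change as large as that of Slc38a2 in B6 lies inside its interval in SLE123. The difference between the treatment effects of the strains was tested as an interaction over the 12 mice, in which limma called 0 of the 10 (3.64% of all genes were called, 1.27% higher and 2.38% lower), with 3 members, Myc, Slc3a2 and Slc7a1, under an unadjusted p of 0.05 and 0 called by voom. Without untreated SLE123 replicate 1 the interaction was called for 3 members, Slc3a2, Slc38a1 and Slc7a1.

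**Figure D2:**
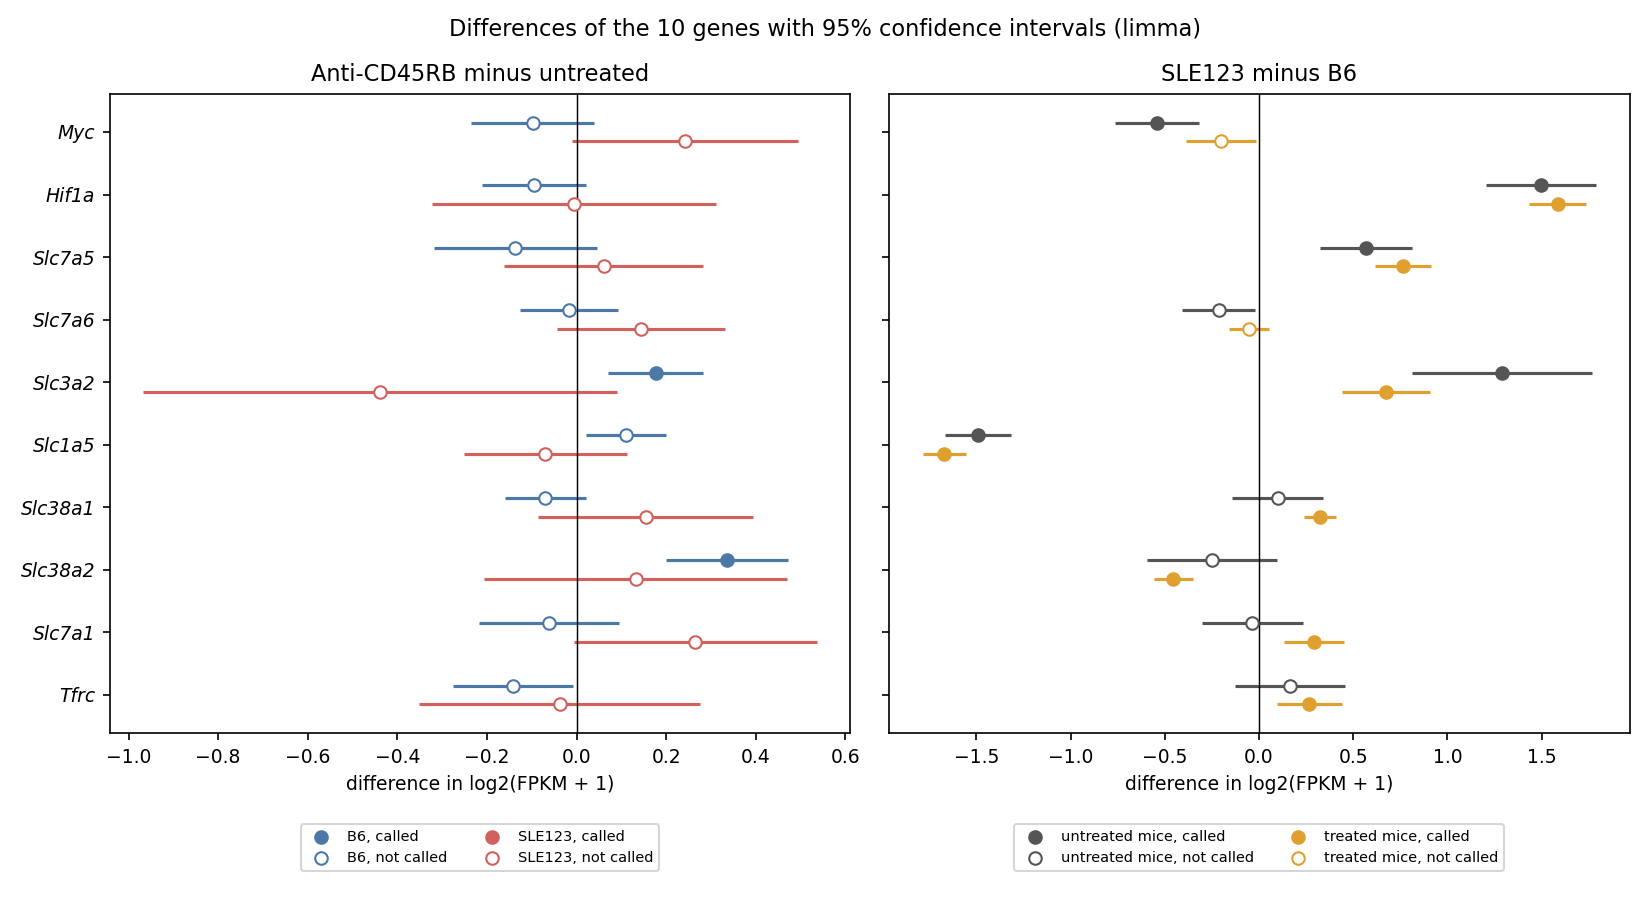
Differences in log2(FPKM + 1) for anti-CD45RB minus untreated (left) and SLE123 minus B6 (right), with 95% confidence intervals from limma (3 mice per group), filled where the gene was called. The 2 filled treatment points are Slc3a2 and Slc38a2 in B6, and Slc1a5 lies lowest and Hif1a highest in both strain comparisons.

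Myc was lower in SLE123 than in B6 among untreated mice. Its levels were 43.3, 41.3 and 47.5 FPKM in untreated B6 replicates 3, 4 and 5, and 39.2, 42.4 and 41.6 FPKM in treated B6 replicates 1, 3 and 5. In SLE123 they were 26.9, 31.1 and 32.1 FPKM in untreated replicates 1, 2 and 3, and 40.01, 32.4 and 34.8 FPKM in treated replicates 1, 2 and 3. The untreated groups did not overlap, whereas treated SLE123 replicate 1 lay among the treated B6 mice. The difference between untreated strains was -0.54 ± 0.10 (SE; adjusted p = 0.00396), a level 1.47-fold lower in SLE123. Between treated mice it was -0.20 ± 0.08 and was not called (adjusted p = 0.0697). Without treated SLE123 replicate 1 it was -0.28 and called (adjusted p = 0.00642). This library alone in SLE123 had liver transcripts at the level of the B6 libraries, so that without it this signal splits fully by strain. The difference was also called after TPM rescaling, after centring and by voom. Every treated SLE123 mouse lay above every untreated one for Myc, a difference of 0.24 ± 0.11 that did not pass the threshold (adjusted p = 0.469), and in B6 the difference was -0.10 ± 0.06 (adjusted p = 0.289). The interaction was 0.34 ± 0.13 (adjusted p = 0.135).

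The partners and antagonists of Myc gave 3 higher and 2 lower calls among 11 tested genes in untreated mice, and 1 higher and 3 lower in treated mice. For all genes the shares were 22.8% higher and 20.1% lower in untreated mice, and 29.6% and 22.5% in treated mice. After TPM rescaling the counts were 1 higher and 5 lower in untreated mice and 1 higher and 6 lower in treated mice, and with totals without immunoglobulin genes 3 higher and 0 lower in untreated mice, so that the balance turned with the scaling. Without treated SLE123 replicate 1 they were 1 higher and 5 lower in treated mice, and without untreated SLE123 replicate 3 they were 2 higher and 1 lower in untreated mice. Mlx and Mlxip, of the related network that senses glucose, had differences of -0.27 (adjusted p = 0.0189) and -0.28 (adjusted p = 0.0637) between untreated strains. Max, the obligate partner of Myc, had 71.9 ± 3.94 FPKM in untreated B6 and 68.6 ± 9.53 in untreated SLE123, a difference of -0.07 that was not called (adjusted p = 0.609), and it was lower in treated SLE123 by -0.35 (adjusted p = 0.000525). Mxd3, an antagonist that competes for Max, was higher in SLE123 in both comparisons, at 1.02 ± 0.27 against 4.38 ± 0.67 FPKM in untreated mice (adjusted p = 0.000405). Of 23 genes of ribosome biogenesis and growth that respond to Myc, 3 were higher and 5 lower in untreated SLE123, and 4 higher and 8 lower in treated SLE123, with medians of -0.10 and -0.07 against -0.03 and 0.03 for all genes. After TPM these were 1 higher and 13 lower in untreated mice (median -0.48) and 2 higher and 12 lower in treated mice, and with totals without immunoglobulin genes 4 higher and 2 lower, and 6 higher and 6 lower. Without untreated SLE123 replicate 3 they were 2 higher and 4 lower, and without untreated SLE123 replicate 1 they were 4 higher and 3 lower. Rrp9, which acts in ribosomal RNA processing, was lower in both strain comparisons, by -0.42 and -0.44, and Fbl, a methylase of ribosomal RNA, was lower in treated SLE123 by -0.26, while Cad, of pyrimidine synthesis, was higher there by 0.37. Odc1, the entry enzyme of polyamine synthesis, was at 31.8 ± 4.40 FPKM in untreated B6 and at 124.4 ± 16.8 in untreated SLE123, a difference of 1.94 (adjusted p = 6.01e-05). Npm1 and Tfap4, which act in ribosome assembly and in the cell cycle downstream of Myc, fell after anti-CD45RB in B6 by 0.16 and 0.29 on the log2 scale (adjusted p = 0.0343 and 0.0144), while Ccnd2, a cyclin of early cell-cycle entry, rose by 0.25 (adjusted p = 0.0132). Of the 23 genes, 1 was called higher and 4 lower with this treatment, against 8.74% and 6.12% of all genes.

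Hif1a showed the largest rise of the members in SLE123, and the antibody left no detectable change in either strain. Its levels were 26.7, 28.2 and 25.5 FPKM in untreated B6 and 25.2, 25.8 and 24.1 in treated B6. In SLE123 they were 88.4, 64.0 and 82.0 FPKM in untreated mice and 70.9, 83.3 and 77.5 in treated mice. All 6 SLE123 libraries lay above the highest B6 library, and within each strain the treated and untreated mice overlapped. The strain difference was 1.497 ± 0.12 in untreated mice (2.91-fold, adjusted p = 0.000142) and 1.59 ± 0.06 in treated mice (3.09-fold), and it was called under every alternative run, between 1.14 and 1.65 on the log2 scale. The treatment difference was -0.09 ± 0.05 in B6 (adjusted p = 0.231) and -0.01 ± 0.13 in SLE123 (adjusted p = 0.988).

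Hif1a lies on the plus strand at chr12:73901375-73947530 (GRCm38). The 250 bases before a RefSeq start of Hif1a on GRCm38.p6, at chr12:73907617-73907866, lie inside the annotated span of the gene, hold none of its exons and are shown because this promoter holds an E-box (CACGTG), the element that Myc and Max bind, and the core of the hypoxia response element that Hif1a itself binds (ACGTG or GCGTG). The E-box begins 135 bases before the start and also contains the hypoxia core on each strand, and a further ACGTG begins 70 bases before the start. Both are in capitals.
Hif1a promoter: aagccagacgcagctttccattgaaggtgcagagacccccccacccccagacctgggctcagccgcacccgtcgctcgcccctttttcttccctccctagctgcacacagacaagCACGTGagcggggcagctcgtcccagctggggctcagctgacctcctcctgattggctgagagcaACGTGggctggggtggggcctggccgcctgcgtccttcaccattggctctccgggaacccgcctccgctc
Searched on both strands, the E-box was present in 6.02% and the hypoxia core in 38.6% of 32851 promoter windows of this length, so that the second is common. A match of letters is a description and not a binding site.

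An antisense gene, Gm15283, overlaps Hif1a, and the strand setting of the counting is not given in the sources used here, so that fragments of the pair cannot be fully told apart. Gm15283 was at 0.214 to 2.29 FPKM in the 12 libraries, far under Hif1a. Its level was higher in SLE123 as well, with means of 0.379 FPKM in untreated B6 and 1.59 in untreated SLE123. It was called higher in SLE123 in both comparisons, by 0.89 and 1.05. Its B6 means, 0.379 untreated and 0.296 treated, were under the 0.5 FPKM of the filter, so that it was tested only through its SLE123 levels. The other tested genes within 500 kb were 2. Snapc1, a subunit of a small nuclear RNA transcription complex, was lower in SLE123 by -0.82 in untreated mice, and Prkch, a protein kinase C of T cells, differed by -0.23 in untreated and 0.20 in treated mice. By correlation over the 12 libraries, the named genes most like Hif1a were Tbc1d4 (r = 0.998), a regulator of glucose transporter traffic, Eea1 (r = 0.998), an early endosome tether, and Itgb8 (r = 0.996), an integrin subunit. These r values describe 2 clusters of libraries, one per strain, and the mean of Tbc1d4 was 13.6 FPKM in untreated B6 and 78.3 in untreated SLE123.

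Among 9 tested partners and oxygen sensors of Hif1a, 5 were higher and 1 was lower in untreated SLE123, and 3 were higher and 1 lower in treated SLE123. All genes had 22.8% higher and 20.1% lower in untreated mice, and 29.6% and 22.5% in treated mice. After TPM the counts were 2 higher and 4 lower in untreated mice (median -0.14 against 0.24 before) and 2 higher and 3 lower in treated mice, so that their direction turned. Cited2, an inhibitor of Hif1a, was higher by 0.44 and 0.27, and among the prolyl hydroxylases Egln2 was higher in untreated SLE123 by 0.24 (adjusted p = 0.0488), while Egln1 differed by -0.06 (adjusted p = 0.559). Arnt, the constitutive partner, had 21.8 ± 0.79 FPKM in untreated B6 and 18.3 ± 1.78 in untreated SLE123 and was not called (adjusted p = 0.0593). Its paralog Arnt2 was higher in SLE123, at 0.276 ± 0.09 against 5.33 ± 1.67 FPKM in untreated mice (difference 2.28, adjusted p = 0.000194). Both B6 means of Arnt2, 0.276 untreated and 0.332 treated, were under the 0.5 FPKM of the filter. Arnt2 was thus tested only through its SLE123 levels, and it is counted among the genes called higher. Egln3, a prolyl hydroxylase that marks Hif1a for degradation and is itself induced by hypoxia, was 1.96 ± 0.31 FPKM in untreated B6 and 8.27 ± 0.72 in untreated SLE123 (difference 1.65, adjusted p = 7.14e-05). Epas1, the second oxygen-regulated alpha subunit, was lower, at 4.66 ± 0.14 against 1.45 ± 0.78 FPKM (difference -1.25).

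The genes known to respond to Hif1a were called in both directions. Of 19 tested, 4 were higher and 5 lower in untreated SLE123, and 2 were higher and 8 lower in treated SLE123, with medians of -0.04 and -0.03. In total this was near the share of all genes called, 42.9% in untreated mice and 52.1% in treated mice. By direction, all genes had 22.8% higher and 20.1% lower in untreated mice, and 29.6% and 22.5% in treated mice. In untreated mice the counts were 2 higher and 9 lower after TPM, 4 higher and 3 lower with totals without immunoglobulin genes, and 2 higher and 3 lower without untreated SLE123 replicate 3. Pdk1, a kinase that inhibits pyruvate dehydrogenase, was 81.5 ± 6.28 FPKM in untreated B6 and 16.6 ± 4.82 in untreated SLE123, a difference of -2.27 (adjusted p = 0.000157). P4ha2, a collagen prolyl hydroxylase, was lower by -0.91 and -0.64. Kdm3a, a histone demethylase, was lower as well (-0.64 in untreated and -0.44 in treated mice). Vegfa, the angiogenic growth factor, and Slc16a3, the lactate exporter, were higher in untreated SLE123 by 1.03 and 1.30. The most abundant genes of the list, Ldha, Ddit4 and Mif, differed by -0.10 (not called, adjusted p = 0.540), 0.13 (not called, adjusted p = 0.506) and 0.42 (adjusted p = 0.0372). After anti-CD45RB in B6, P4ha1, Ndrg1 and Ldha rose by 0.30, 0.57 and 0.15. Of the 19 genes, 3 were called higher and 0 lower with this treatment, in total near the 14.9% of all genes called (8.74% higher and 6.12% lower).

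The heavy chain Slc3a2 was higher in SLE123 and varied most between untreated SLE123 mice, by its SD. Its levels were 37.4, 36.1 and 39.1 FPKM in untreated B6 and 42.1, 41.2 and 44.5 in treated B6, so that every treated B6 mouse lay above every untreated one. In SLE123 they were 65.5, 103 and 119.9 FPKM in untreated mice and 58.0, 74.8 and 73.9 in treated mice. All SLE123 mice lay above all B6 mice, and the SLE123 groups overlapped. The strain difference was 1.29 ± 0.20 in untreated mice (2.56-fold, adjusted p = 0.00246) and 0.67 ± 0.10 in treated mice (1.62-fold, adjusted p = 0.00141). The treatment difference in B6 was 0.18 ± 0.04 (adjusted p = 0.0427), and it was no longer called in 5 of the 6 fits that left out 1 mouse. In SLE123 the treatment difference was -0.44 ± 0.22 (adjusted p = 0.482), and the interaction of -0.62 ± 0.25 did not pass the threshold (adjusted p = 0.161). Without untreated SLE123 replicate 1, the interaction was -0.87 and was called (adjusted p = 0.00476).

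Within SLE123, Slc3a2 was highest in the libraries with the most plasma cell transcripts, which come from secretory cells. The plasma cell sum was lowest in treated SLE123 replicate 1 (1048 FPKM), where Slc3a2 was lowest at 58.0, and highest in untreated SLE123 replicates 2 and 3 (2821 and 5037 FPKM), where Slc3a2 was highest at 103 and 119.9. Untreated SLE123 replicate 1 had 1949 FPKM of these markers and 65.5 of Slc3a2, less than the 74.8 in treated SLE123 replicate 2, with 1920 FPKM of markers. The part of plasma cell RNA in the level of Slc3a2 was not tested. Without untreated SLE123 replicate 3, the strain difference of Slc3a2 was 1.11 (adjusted p = 0.00542).

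**Figure D3:**
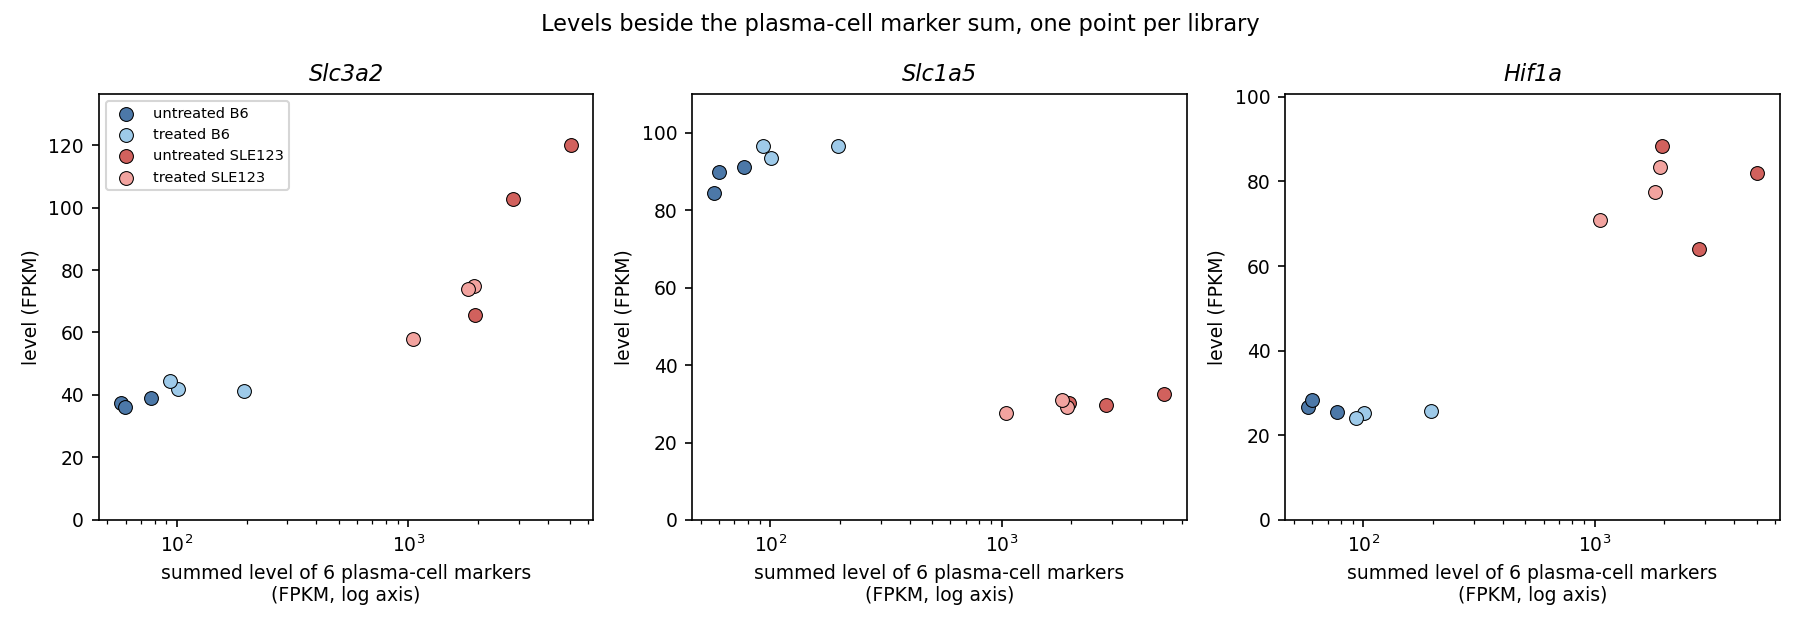
Levels of Slc3a2, Slc1a5 and Hif1a in FPKM (vertical axes from 0) against the summed level of 6 plasma cell markers (FPKM, log axis), one point per library of the 4 groups. The B6 libraries sit at 57.4 to 195.5 FPKM of plasma cell markers and the SLE123 libraries at 1048 to 5037, and Slc3a2 reaches 119.9 FPKM in the library with the highest sum.

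The light chain Slc7a5, the leucine carrier that feeds mTORC1, was higher in SLE123. Slc7a5 was at 14.9, 17.4 and 17.1 FPKM in untreated B6 and 15.8, 13.7 and 15.2 in treated B6. It was at 22.6, 24.2 and 28.0 FPKM in untreated SLE123 and 25.3, 25.5 and 27.02 in treated SLE123. The strains did not overlap with or without treatment, and within a strain the treated mice overlapped the untreated ones. The strain difference was 0.57 ± 0.10 in untreated mice (1.51-fold, adjusted p = 0.00470) and 0.76 ± 0.06 in treated mice (1.74-fold, adjusted p = 0.000135). After rescaling to TPM, which sets every library to the same sum and moved the median difference of all genes to -0.38 between untreated strains, Slc7a5 differed by 0.21 and was not called (adjusted p = 0.185). Slc7a6 lay between 11.98 and 15.9 FPKM in the 12 libraries. The untreated strains did not overlap for it, nor did treated and untreated SLE123 mice, and the strain differences were -0.21 ± 0.08 (adjusted p = 0.0712) and -0.05 ± 0.04 (adjusted p = 0.347), neither called. Its treatment differences of -0.02 in B6 and 0.14 in SLE123 were not called either. After TPM Slc7a6 was called lower in SLE123 in untreated mice (-0.59, adjusted p = 0.00646) and in treated mice (-0.23, adjusted p = 0.0139), and with all 12 mice in one fit it was called in untreated mice (adjusted p = 0.0103).

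The ratio of the heavy chain to the sum of these light chains, per length, was 1.19 ± 0.07 (SD, n = 3) in untreated B6, 1.43 ± 0.05 in treated B6, 2.52 ± 0.61 in untreated SLE123 and 1.71 ± 0.20 in treated SLE123. It ranged from 1.12 to 1.26 and from 1.38 to 1.47 in the B6 groups, from 1.81 to 2.90 in untreated SLE123 and from 1.48 to 1.88 in treated SLE123. The transcript of the heavy chain thus exceeded that of the light chains in every library, and the B6 groups did not overlap. Slc3a2 also serves other light chains, so that the ratio does not count complexes.

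Slc1a5, the main glutamine and neutral amino acid exchanger of activated T cells, was the member that fell furthest in SLE123, the opposite direction to Slc3a2 and Hif1a. Its levels were 84.4, 90.0 and 91.3 FPKM in untreated B6 and 93.4, 96.7 and 96.7 in treated B6. In SLE123 they were 30.3, 29.6 and 32.7 FPKM in untreated mice and 27.7, 29.3 and 31.0 in treated mice. The SLE123 libraries lay together far under all B6 libraries, with a spread of a few FPKM. The difference was -1.49 ± 0.08 in untreated mice (2.87-fold lower in SLE123) and -1.67 ± 0.05 in treated mice (3.26-fold lower, adjusted p = 3.70e-06), and it stayed between -1.38 and -1.89 under every alternative run. In B6, each treated mouse lay above each untreated one, a difference of 0.11 ± 0.04 that was not called (adjusted p = 0.0970). In SLE123 the groups overlapped and the difference was -0.07 ± 0.08 (adjusted p = 0.718).

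Slc1a5 is on the plus strand at chr7:16781340-16798274 (GRCm38). As background, Sle3 is a region of chromosome 7, and its limits in this line are not given in the sources used here. Within 500 kb of Slc1a5, 15 other genes were tested. Between untreated strains 3 were higher and 5 lower, with differences from -0.82 to 0.46 and a median of -0.23, and between treated strains 3 were higher and 7 lower, from -1.55 to 0.18. Over all genes, 22.8% were called higher and 20.1% lower between untreated strains, and 29.6% and 22.5% between treated strains. None of the 15 neighbours fell as far as Slc1a5 in the same comparison, but Bbc3 came near it between treated strains. There Bbc3 differed by -1.55 (adjusted p = 0.00108) against -1.67 for Slc1a5, and between untreated strains by -0.16 (not called, adjusted p = 0.423). Prkd2 was lower in both comparisons, by -0.82 and -0.93.

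The SNAT transporters Slc38a1 and Slc38a2, which take up glutamine and alanine with sodium, are described next. Slc38a2 was at 58.2, 52.8 and 51.3 FPKM in untreated B6 and 72.0, 65.3 and 68.1 in treated B6, without overlap. It was at 45.4, 36.6 and 55.7 FPKM in untreated SLE123 and 49.2, 49.6 and 50.2 in treated SLE123, where the treated mice lay inside the range of the untreated ones. After anti-CD45RB it rose in B6 by 0.34 ± 0.06 (1.27-fold, adjusted p = 0.0137), the largest treatment change of the members in B6. It was called in 5 of the 6 fits that left out 1 mouse and not without untreated B6 replicate 4 (adjusted p = 0.0598), and with no filter on low genes or with all 12 mice in one fit neither Slc38a2 nor Slc3a2 was called. In SLE123 the treatment difference was 0.13 ± 0.14 (adjusted p = 0.713), and the interaction was -0.20 ± 0.17 (adjusted p = 0.467). Treated SLE123 mice had less Slc38a2 than treated B6 mice, by -0.45 ± 0.04 (adjusted p = 0.000263), while the untreated strains differed by -0.25 ± 0.15 (adjusted p = 0.204), or by -0.40 without untreated SLE123 replicate 3 (adjusted p = 0.0388) and by -0.63 after TPM (adjusted p = 0.00825), both called.

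Slc38a1 lay between 23.0 and 25.2 FPKM in the 6 B6 mice, at 30.3, 23.3 and 26.0 in untreated SLE123 and at 29.7, 29.3 and 29.4 in treated SLE123. Treated SLE123 mice lay above all treated B6 mice, a difference of 0.32 ± 0.04 (1.26-fold, adjusted p = 0.000471), which was not called after rescaling to TPM (0.15, adjusted p = 0.0860). Untreated strains overlapped and differed by 0.10 ± 0.10 (adjusted p = 0.456). The ratio of Slc1a5 to Slc38a2 was 1.64 ± 0.17 in untreated B6, 1.40 ± 0.09 in treated B6, 0.687 ± 0.11 in untreated SLE123 and 0.591 ± 0.03 in treated SLE123. Slc1a5 thus exceeded Slc38a2 in each B6 library (1.30 to 1.78) and fell under it in each SLE123 library (0.563 to 0.809).

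**Figure D4:**
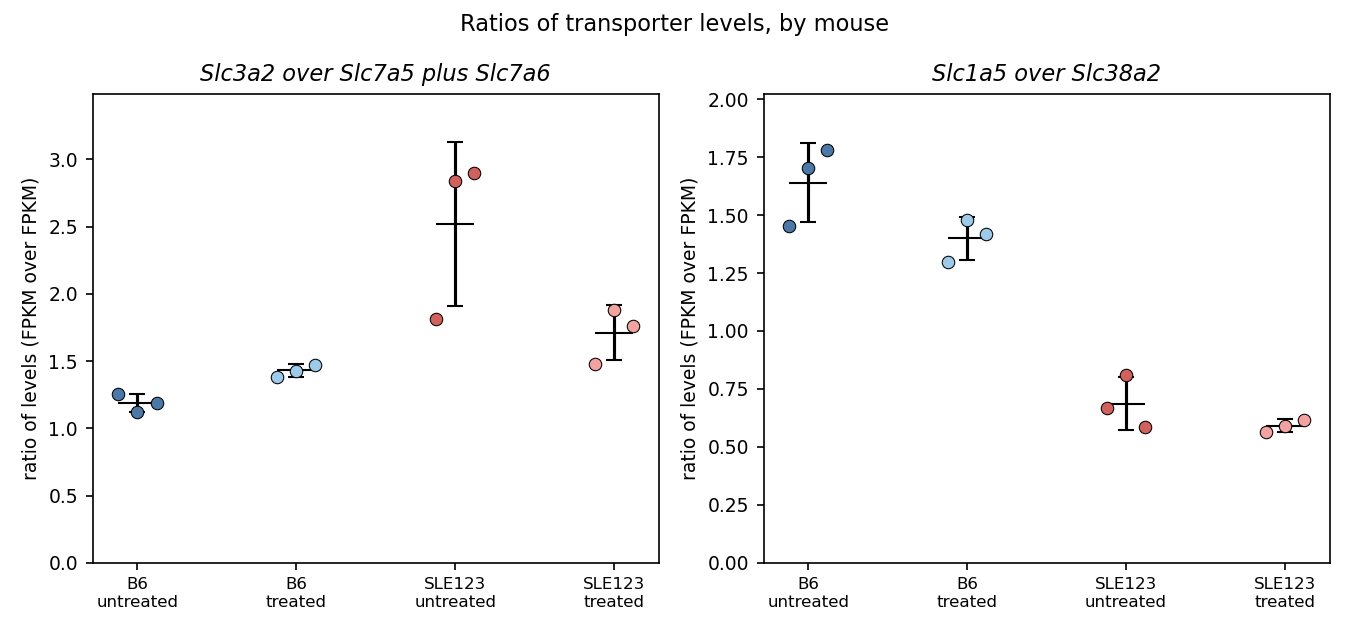
Ratios of FPKM levels (vertical axes from 0) for Slc3a2 over Slc7a5 plus Slc7a6 (left) and Slc1a5 over Slc38a2 (right), one point per mouse with the mean ± SD (n = 3) of each group. The left ratio is lowest in untreated B6 (1.12 to 1.26), and the right ratio is 1.30 to 1.78 in B6 mice and 0.563 to 0.809 in SLE123 mice.

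Slc7a1, the arginine and lysine carrier, was called between the treated strains and not between the untreated ones. Its levels were 14.3, 14.8 and 14.7 FPKM in untreated B6 and 15.1, 12.7 and 14.1 in treated B6. They were 16.2, 11.9 and 14.8 FPKM in untreated SLE123 and 17.5, 16.7 and 17.6 in treated SLE123. The treated SLE123 mice lay above all other libraries. Between treated strains the difference was 0.29 ± 0.07 (1.24-fold, adjusted p = 0.0101), and between untreated strains it was -0.04 ± 0.11 (adjusted p = 0.819). The change with treatment within SLE123, 0.27 ± 0.11, did not pass the threshold (adjusted p = 0.469), nor did the interaction (0.33 ± 0.14, adjusted p = 0.171). After rescaling to TPM the treated strains differed by 0.13 (adjusted p = 0.273).

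Tfrc was among the lowest of the members and changed little. Its levels were 14.0, 12.8 and 13.5 FPKM in untreated B6 and 12.1, 12.7 and 11.5 in treated B6, each treated mouse under each untreated one. They were 14.0, 13.5 and 18.5 FPKM in untreated SLE123 and 16.4, 14.1 and 14.0 in treated SLE123, with overlap. The treatment difference in B6 was -0.14 ± 0.06 (adjusted p = 0.137) and in SLE123 -0.04 ± 0.13 (adjusted p = 0.921), and neither was called. Treated SLE123 mice were higher than treated B6 mice by 0.27 ± 0.07 (1.22-fold, adjusted p = 0.0196), a call that was lost in 6 of the 15 alternatives run, including the fits without treated B6 replicate 1 (adjusted p = 0.0517) and replicate 5 (adjusted p = 0.0670). Erythroid precursors and dividing cells carry much Tfrc. The 2 highest levels, in untreated SLE123 replicate 3 and treated SLE123 replicate 1, came from libraries with erythroid sums of 86.5 and 45.5 FPKM, against 5.58 to 27.3 in B6 and 17.3 to 55.2 in the other SLE123 libraries, and with dividing cell sums of 267 and 254 FPKM, against 169 to 246 in the other SLE123 libraries. The part of these cells in the level of Tfrc was not tested.

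The Tfrc transcript is stabilized when iron is short through iron-responsive elements, hairpins in its 3' untranslated region that iron regulatory proteins bind. The search found 4 of them in transcript Tfrc-201 on the plus strand of chromosome 16 (GRCm38), and none in the transcripts of the other 9 members. They are shown because they are what ties this transcript to iron, with the loop CAGTG and the base after it in capitals.
Tfrc element at chr16:32631220-32631246: attatcggaagCAGTGCcttccataat
Tfrc element at chr16:32631599-32631625: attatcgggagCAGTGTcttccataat
Tfrc element at chr16:32631664-32631690: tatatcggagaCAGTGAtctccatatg
Tfrc element at chr16:32631711-32631737: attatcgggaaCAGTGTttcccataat
Each has an unpaired C separated from the loop by 5 bases of stem, because the search required it. Among the 13 tested genes of iron uptake, storage and export, 3 were higher and 3 lower in untreated SLE123 and 5 were higher and 2 lower in treated SLE123. The shares of all genes were 22.8% higher and 20.1% lower in untreated mice, and 29.6% and 22.5% in treated mice. Without treated SLE123 replicate 1 they were 3 higher and 2 lower in treated mice, and after TPM 4 higher and 6 lower in untreated mice and 3 higher and 2 lower in treated mice. Fbxl5, which targets an iron regulatory protein, differed by -0.11 between untreated strains (adjusted p = 0.436). Fth1, the ferritin heavy chain, was at 511 ± 26.1 FPKM in untreated B6 and 533 ± 50.8 in untreated SLE123 (not called, adjusted p = 0.722), whereas Ftl1, the light chain, was at 475 ± 4.75 and 163.5 ± 28.8, a difference of -1.55 (adjusted p = 0.000214). Ftl1 has near-identical copies in the mouse genome, and how the authors' counting shared such reads is not given in the sources used here. Hmox1, which frees iron from heme, was at 0.884 ± 0.27 FPKM in untreated B6 and 10.6 ± 7.89 in untreated SLE123 (difference 2.44, adjusted p = 0.00307), and Slc25a37, the mitochondrial iron importer, was lower in SLE123 by -0.57 and fell by 0.23 after anti-CD45RB in B6 (adjusted p = 0.0236). The genes most like Tfrc over the 12 libraries were Cdc25a (r = 0.922), a phosphatase of the cell cycle, Mgat2 (r = 0.903), an enzyme of N-glycan branching, and Ccdc18 (r = 0.881). For Myc they were Atp8a2 (r = 0.945), Haus2 (r = 0.936) and Cdk2 (r = 0.931), and these correlations share the strain split.

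Among the other genes of amino acid supply, more were called higher than lower in SLE123. Of 20 tested genes of Atf4 and the amino acid response, 11 were higher and 2 lower in untreated SLE123 and 12 were higher and 2 lower in treated SLE123, with medians of 0.30 and 0.38. Among all genes 22.8% were higher and 20.1% lower in untreated mice, and 29.6% and 22.5% in treated mice. Asns, which makes asparagine, was at 1.00 ± 0.12 FPKM in untreated B6 and 11.6 ± 3.96 in untreated SLE123 (difference 2.61, adjusted p = 0.000154). Psat1, an enzyme of serine synthesis, was at 14.2 ± 0.31 and 30.9 ± 2.45 FPKM (difference 1.07). Chac1, which degrades glutathione, was at 0.0365 FPKM in untreated B6 and 3.94 ± 1.39 in untreated SLE123. The first is less than 3 fragments would give over 2000 bases of transcript and is under the 0.5 FPKM of the filter. Among untreated mice Chac1 thus reached the filter only in SLE123, and it is counted among the genes called higher there. Atf4 itself was at 135 ± 9.45 and 127 ± 17.8 FPKM and was not called between untreated strains (adjusted p = 0.547), and it was lower in treated SLE123 by -0.18 (adjusted p = 0.0135). Aars, Nars and Mthfd2, which load tRNA with alanine and asparagine and supply one-carbon units, were higher in both comparisons, by 0.30 to 0.67 on the log2 scale, and Gars, which loads tRNA with glycine, by 0.14 in treated mice. After rescaling to TPM the counts were 5 higher and 3 lower in untreated mice, with a list median of -0.07 against -0.38 for all genes, and without untreated SLE123 replicate 3 they were 8 higher and 1 lower. The part of plasma and dividing cells in these counts was not tested.

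**Figure D5:**
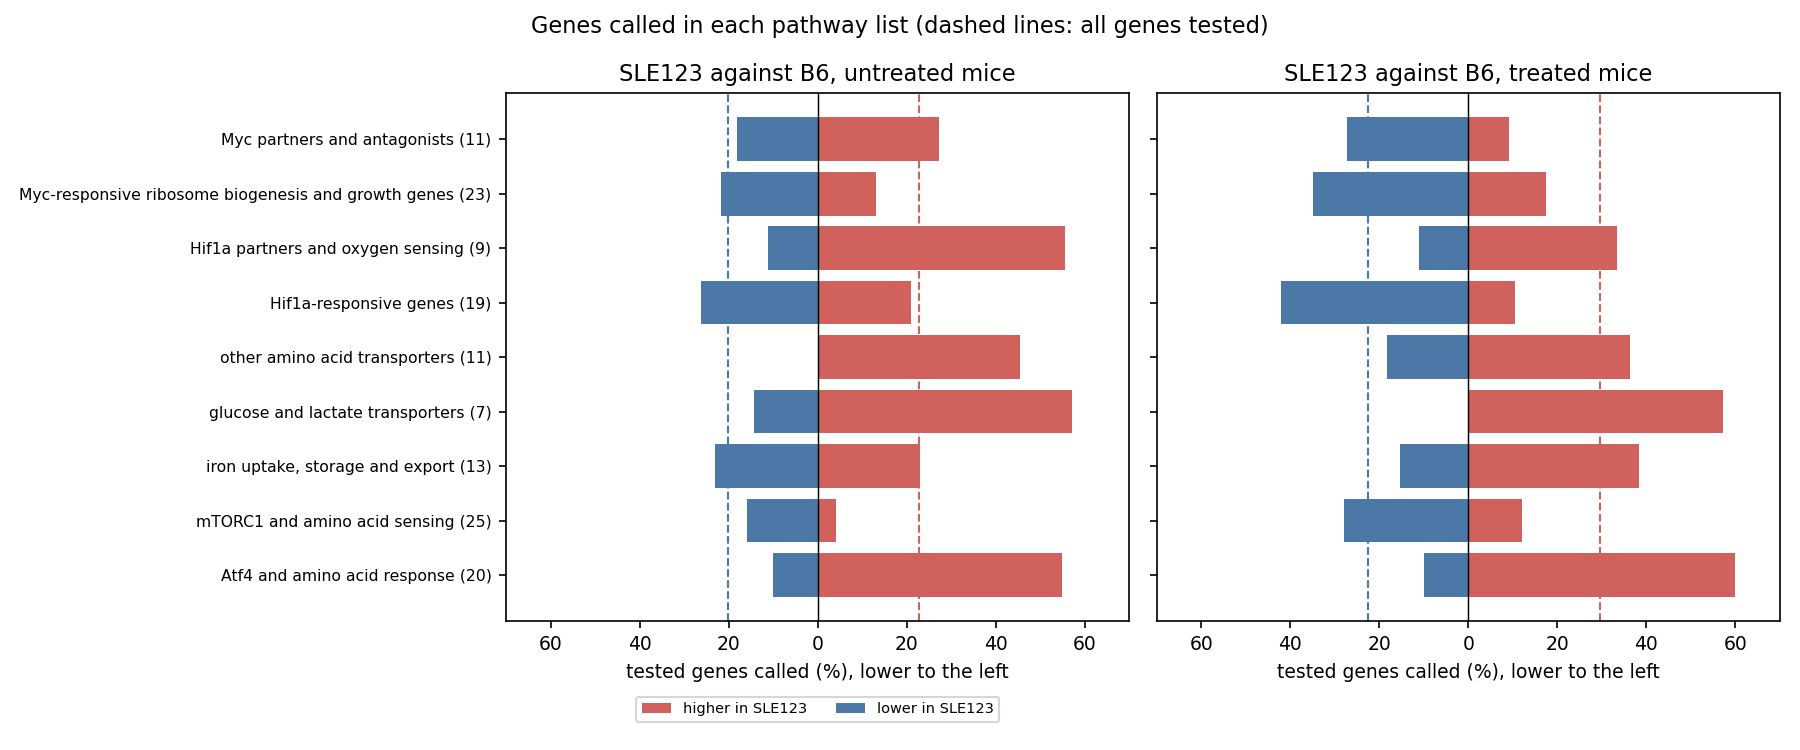
Share of tested genes called higher (right of 0) or lower (left of 0) in SLE123 than in B6 for 9 pathway lists, in untreated and treated mice, with the number of tested genes in parentheses and dashed lines for all genes tested. The Atf4 list has 11 and 12 of 20 genes higher, whereas the Hif1a-responsive list has 5 and 8 of 19 genes lower and 4 and 2 higher, a balance that turns in untreated mice (4 higher and 3 lower) with totals without immunoglobulin genes.

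Other amino acid transporters gave 5 higher and 0 lower calls among 11 tested genes in untreated SLE123 (limma, adjusted p under 0.05), and 4 higher and 2 lower in treated SLE123. All genes had 22.8% higher and 20.1% lower in untreated mice, and 29.6% and 22.5% in treated mice. The other 12 of the 23 listed transporters were under the filter on low values. Slc1a4, the closest relative of Slc1a5, moved in the opposite direction to it, from 0.515 ± 0.09 FPKM in untreated B6 to 9.87 ± 2.07 in untreated SLE123 (difference 2.83, adjusted p = 2.56e-05). Slc7a7, a light chain of Slc3a2, was at 0.619 ± 0.27 and 4.66 ± 2.52 FPKM (difference 1.73), and it rose in B6 with treatment by 0.49 (adjusted p = 0.0443). Slc38a10 was higher by 0.39 and 0.32 in the untreated and treated comparison, and Slc36a4 was higher in treated SLE123 by 0.71, where Slc36a1 was lower by -0.18. Slc43a2, a carrier of large neutral amino acids, differed by -0.05 and -0.02 and was not called. After rescaling to TPM, 4 were higher and 3 lower in untreated mice.

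Glucose and lactate transporters were higher in SLE123 for 4 of 7 tested genes in each comparison, with 1 lower in untreated mice. Among all genes 22.8% were higher and 20.1% lower in untreated mice, and 29.6% and 22.5% in treated mice. After TPM 2 were higher and 1 lower in untreated mice, and 2 were higher in treated mice. Slc2a1 (Glut1), the main glucose transporter of T cells, had 16.4 ± 0.40 FPKM in untreated B6, 14.9 ± 0.43 in treated B6, 16.2 ± 1.83 in untreated SLE123 and 15.02 ± 0.85 in treated SLE123, and no comparison called it. Slc2a6, a glucose transporter of inflammatory cells, and Bsg, the partner of the lactate carriers, were higher in untreated SLE123 by 1.92 and 0.68, while Slc2a3, a further glucose transporter, differed by -0.495 (adjusted p = 0.00300). Slc2a6 rose in B6 from 0.355 ± 0.06 to 1.27 ± 0.16 FPKM (adjusted p = 0.00413). The B6 rises of Slc2a6 and Slc7a7 came with the higher myeloid sum of treated B6 mice (50.4 to 117.9 against 5.78 to 11.5 FPKM), and its part in them was not tested.

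Of 25 tested mTORC1 and amino acid sensing genes, 1 was higher and 4 lower in untreated SLE123, and 3 were higher and 7 lower in treated SLE123. In total this was a smaller share than over all genes, of which 42.9% (22.8% higher and 20.1% lower) and 52.1% (29.6% and 22.5%) were called. In untreated mice the counts were 0 higher and 15 lower after TPM, 2 higher and 2 lower with totals without immunoglobulin genes, 0 higher and 8 lower without untreated SLE123 replicate 1 and 0 higher and 2 lower without replicate 3. In treated mice they were 0 higher and 11 lower after TPM and 5 higher and 5 lower with totals without immunoglobulin genes. Mtor was called in no comparison, with a difference of -0.33 between untreated strains (adjusted p = 0.0849). Sesn1, a leucine sensor that restrains mTORC1, was lower in SLE123 by -0.75 and -0.998, and Rictor and Rptor, the scaffolds of the mTOR complexes, were lower in untreated SLE123 by -0.82 and -0.33. After anti-CD45RB in B6, Rragc and Rragd, which recruit mTORC1 to the lysosome, rose by 0.18 and 0.39 (adjusted p = 0.0320 and 0.0406), and so did Nprl2, which restrains it, by 0.19 (adjusted p = 0.0441). Of the 25 genes, 3 were called higher and 1 lower with this treatment, in total near the 14.9% of all genes called. Between treated strains, Flcn, which acts on the Rag proteins, was lower in SLE123 by -0.28, Sesn3 was higher by 0.16 and Lamtor2, of the lysosomal anchor, differed by -0.09 (adjusted p = 0.0763).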

How the data were processed

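RNA-Seq was carried out on CD4+ T cells of 12 mice. The authors deposited FPKM values per Ensembl gene and library. The submitters' processing notes name CASAVA 1.8, STAR and mm10, without roles, while annotation, counter and strand setting are not given in the sources used here. Groups were taken from the strain and treatment labels. The members, gene lists and tests were chosen with earlier results of these data known.

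Symbols and coordinates were from GENCODE M21 (GRCm38), which holds 97.8% of the identifiers. FPKM values were whole multiples (tolerance 0.01 fragments) of the value of 1 fragment for 100% of 23230 genes above 0, which gave fragments per library; without molecular identifiers, such totals speak for counting error alone. A total of 3 fragments on 2000 bases is 0.0634 to 0.111 FPKM.

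Values were tested as log2(FPKM + 1) with limma 3.58.1 in R 4.3.3 (lmFit, eBayes with trend), two-sided, on the 6 mice of each comparison, or all 12 for the interaction, over the 13115 genes that averaged 0.5 FPKM or more, with Benjamini-Hochberg adjustment. Simulated data with 200 altered genes were used to check it. This scale understates the changes of low genes. Fold changes are ratios of mean FPKM. Strain comparisons share their mice with the treatment comparisons.

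Named genes were the 10 members, Max, Arnt, Slc2a1, Mtor and Atf4, the 3 most abundant and up to 3 most significant called genes of each pathway list, and the 3 genes most correlated with Myc, Hif1a and Tfrc. Neighbours of Slc1a5 and Hif1a were those within 500 kb. Transcripts of the members were searched for near copies with BLAST+ 2.17.0 (98% identity over 100 bases), and 2 members had any, Hif1a with genes that overlap it and Slc3a2 over short stretches. RefSeq promoter sequences (GRCm38.p6) matched 6 of the 10 members. Iron-responsive elements were searched as a hairpin with the loop CAGTGN.

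The results were recomputed after rescaling to TPM or centring on the median log-ratio, with voom on recovered fragments, with 0.1 as pseudocount, with 1 FPKM as the filter or none, with the 12 mice fitted together, with a block for the replicate number, and without each mouse. Rescaling to totals without immunoglobulin genes, and the counts of the pathway lists under each scaling and without single libraries, were added after the data were seen.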

Additional observations from a re-analysis of the deposited data

Results flagged for a closer look

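For 3 genes of the pathway lists the treatment effect differed between the strains by the interaction in limma, which called 3.64% of all genes. They were 2 of the 7 tested glucose and lactate transporters and 1 of the 11 tested Myc partners and antagonists. Slc16a3 is also 1 of the 19 tested Hif1a-responsive genes. In every other list, with 9 to 25 tested genes, 0 were called. These calls therefore describe single genes and not the lists. The interaction was -1.13 for Slc2a6 (adjusted p = 0.00666), -0.58 for Slc16a3 (adjusted p = 0.0455) and -0.45 for Mxd4 (adjusted p = 0.0191), each a treatment effect lower in SLE123 than in B6. Slc2a6 was called in 19 of the 20 alternatives run, Mxd4 in 14 and Slc16a3 in 7. Slc16a3 was not called without treated SLE123 replicate 1 (adjusted p = 0.105), without untreated SLE123 replicate 3 (adjusted p = 0.079) or after TPM (adjusted p = 0.101), nor Mxd4 after TPM (adjusted p = 0.147), and none of the 3 with the replicate block (adjusted p = 0.133, 0.215 and 0.133 for Slc2a6, Slc16a3 and Mxd4). In the same interaction 5 of 6 tested myeloid markers and 4 of 6 tested B cell markers were called lower, and their part in these values was not tested.

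In 3 further genes of the pathway lists, all treated mice lay under all untreated mice in B6 and above them in SLE123. The 3 were picked from the lists for this pattern, and the interaction did not pass the threshold in limma. Over all genes, the groups did not overlap for 38.0% in B6 and for 19.7% in SLE123. The share of all genes with such opposite changes was not computed, so that the pattern is a description of these genes. The interaction was 0.29 for Polr1b (adjusted p = 0.12), 0.32 for Rptor (adjusted p = 0.0942) and 0.27 for Wdr43 (adjusted p = 0.0567).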

How the results depend on the processing

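In B6, the treatment called 1948 genes, 1134 with no filter and 815 with all 12 mice in one fit, and 0 members in both of these. Leaving out 1 mouse gave 675 to 1393 genes and 0 to 2 members. In SLE123, it called 5 genes, 21 after TPM rescaling, 3 by voom, 53 with all 12 mice in one fit and 1 to 7 with 1 mouse left out. Between strains, leaving out 1 mouse gave 3672 to 6469 genes in untreated mice against 5621. For the interaction it gave 205 to 2917 genes against 478 and 0 to 3 members, the highest of both without untreated SLE123 replicate 1. TPM moved the median of all genes from -0.03 to -0.38 between untreated strains, from 0.03 to -0.14 between treated strains, from 0.04 to 0.22 for the SLE123 treatment and from 0.04 to 0.23 for the interaction. The share of calls that were higher was 53.2% between untreated strains, 24.3% after TPM and 67.4% with totals without immunoglobulin genes, which was chosen after seeing the data. Between treated strains these were 56.8%, 35.3% and 66.5%. For the interaction, 34.7% of calls were higher, 20.5% after centring and 22.9% with the totals without immunoglobulin genes.

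The direction turned for uncalled differences only. With 1 mouse left out, Slc7a1 ranged from -0.115 to 0.0024 and Slc7a6 from -0.037 to 0.0143 in B6. For the SLE123 treatment, TPM gave 0.1858 for Hif1a, 0.1191 for Slc1a5 and 0.1484 for Tfrc. There, with 1 mouse left out, Hif1a was 0.0533, 0.0890 and 0.0350 without treated replicate 1, untreated replicate 1 and untreated replicate 3, and the ranges were -0.1415 to 0.089 for Hif1a, -0.0062 to 0.1437 for Slc7a5, -0.0171 to 0.2788 for Slc38a2 and -0.1168 to 0.0981 for Tfrc. Between untreated strains, TPM gave -0.2740 for Slc38a1 and -0.2020 for Tfrc, and Slc7a1 was 0.0764 with totals without immunoglobulin genes and -0.1271 to 0.0820 with 1 mouse left out. Between treated strains, Slc7a6 was 0.0047 with those totals. In the interaction, Slc1a5 was 0.0189 after TPM and Hif1a ranged from -0.0472 to 0.1833 with 1 mouse left out. The cause was not tested.

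Whether the replicate numbers of the titles pair the mice could not be decided. Deviations of same-numbered mice correlated at -0.1401 and -0.09356 in B6, 0.1366, -0.1608 and 0.2665 in SLE123 and 0.0647 and 0.1432 between treated strains. Mice of different numbers gave -0.1345 to 0.1998, -0.3267 to 0.2113 and -0.1935 to 0.1583, and these few values cannot exclude pairing. With the replicate block, 0 genes were called in B6 by limma (2466 at an unadjusted p under 0.05; voom without the block called 2717) and 0 members, 3414 genes between treated strains and 34 for the interaction. In B6 only numbers 3 and 5 occur in both groups, so the blocked difference rested on those mice and its 0 calls say little about the response. The untreated strains share 1 number, so no block was fitted for them.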
